A study of Mus musculus with 3 samples.

Results

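The 46 genes described here encode collagens, proteoglycans, elastic fibre proteins, glycoproteins and assembly factors of the dermal extracellular matrix. They were taken by name from the 26989 genes listed in the count tables of 3 mouse skin libraries. Their values were read in fibroblasts, defined as cells with at least 10 counts of Col1a1, Col1a2 and Col3a1 together, at least 2 counts of Dcn and 0 counts of Ptprc, the pan-leukocyte gene. The fibroblasts were split into cells with at least 1 count of Pi16, a gene of adventitial and reticular fibroblasts, and cells with none. Whole skin of C57BL/6 mice of 9 weeks was dissociated and prepared with the Singleron GEXSCOPE single-cell kit. The UV plus VD library came from irradiated mice given VD, which is taken to stand for the vitamin D named by the title of the series. The UV library came from irradiated mice given saline, and the control library from unirradiated mice given saline. Each group is 1 library of an unstated number of mice. The rule found 172 fibroblasts among 6199 UV plus VD cells, 443 among 5451 UV cells and 184 among 9078 control cells. The 4 genes of the rule (Col1a1, Col1a2, Col3a1 and Dcn) chose the cells, so their levels are given as a description, and counts and medians are over the other 42 genes.

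Fibroblasts make most of the dermal matrix. Fibrillar collagens I, III and V are secreted as procollagens, trimmed, assembled into fibrils and cross-linked by lysyl oxidases. Small leucine-rich proteoglycans coat the fibrils and set their spacing, and fibrillin microfibrils with elastin form the elastic fibres that let skin recoil. Chronic ultraviolet exposure is known for its effects on both networks in the dermis, and injured skin makes provisional matrix proteins such as tenascin-C and periostin.

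The table of promoter windows, from RefSeq on GRCm38.p6, held 33 of the 46 genes. Each window runs from 250 bases before the transcription start to 50 bases after it. The 4 printed here belong to tenascin-C (Tnc, chr4:64046966-64047265, minus strand), periostin (Postn, chr3:54359017-54359316, plus strand), thrombospondin-2 (Thbs2, chr17:14694213-14694512, minus strand) and collagen III (Col3a1, chr1:45311288-45311587, plus strand). Tnc, Postn and Thbs2 are shown as examples of genes whose levels stood at least 1.5-fold higher in UV than in control in both Pi16 classes. Other members, such as Serpinh1, met this limit too. Tnc met it in Pi16-positive cells through few cells, as described further on. Col3a1 is shown as 1 of the 3 fibrillar collagens of the cell rule. Tnc and Postn are listed with 2 starts each, and 1 window of each is given. Capitals mark the TATA box letters TATAAA, the CCAAT box letters CCAAT and the SMAD element letters CAGACA, on either strand.
Tnc: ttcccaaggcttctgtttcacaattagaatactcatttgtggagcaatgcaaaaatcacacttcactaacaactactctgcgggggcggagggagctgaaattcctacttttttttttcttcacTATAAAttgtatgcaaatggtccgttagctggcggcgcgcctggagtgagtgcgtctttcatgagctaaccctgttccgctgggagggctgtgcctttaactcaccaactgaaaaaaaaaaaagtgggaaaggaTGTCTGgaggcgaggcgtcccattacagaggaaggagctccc
Postn: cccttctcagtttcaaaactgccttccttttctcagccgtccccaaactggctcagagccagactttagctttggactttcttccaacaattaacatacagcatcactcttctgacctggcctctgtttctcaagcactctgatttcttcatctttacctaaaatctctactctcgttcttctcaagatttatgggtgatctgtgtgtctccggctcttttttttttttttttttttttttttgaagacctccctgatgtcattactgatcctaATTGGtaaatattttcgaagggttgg
Thbs2: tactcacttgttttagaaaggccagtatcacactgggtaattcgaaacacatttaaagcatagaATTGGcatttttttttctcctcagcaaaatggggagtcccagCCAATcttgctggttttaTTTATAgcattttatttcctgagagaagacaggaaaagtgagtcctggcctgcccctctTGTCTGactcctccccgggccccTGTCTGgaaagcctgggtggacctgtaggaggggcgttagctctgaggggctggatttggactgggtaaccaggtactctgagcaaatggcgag
Col3a1: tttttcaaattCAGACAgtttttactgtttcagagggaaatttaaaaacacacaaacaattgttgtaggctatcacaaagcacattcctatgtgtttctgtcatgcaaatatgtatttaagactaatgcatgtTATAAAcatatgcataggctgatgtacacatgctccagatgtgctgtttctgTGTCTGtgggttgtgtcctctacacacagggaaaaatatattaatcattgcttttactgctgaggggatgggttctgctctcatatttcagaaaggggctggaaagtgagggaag

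The TATAAA letters were found in 5 of 33 member windows (15.2%) and in 14.2% of all 27025 windows. CCAAT was found in 13 (39.4%) and in 37.9% of all windows, and TGANTCA, the AP-1 letters, in 3 (9.09%) and in 7.93%. CAGACA was found in 10 (30.3%) and in 21.03% of all windows. Tnc, Thbs2 and Col3a1 carry both TATAAA and CAGACA, Thbs2 also holds CCAAT in 2 places, and Postn holds CCAAT alone. A match describes letters in a window and is not evidence of a bound site.

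The 3 libraries held 69126823 counts in UV plus VD, 50610389 in UV and 79450666 in control after cells with fewer than 200 genes or more than 20% mitochondrial counts were left out. A fibroblast had a median of 5234.5 counts in UV plus VD, 6486 in UV and 4839 in control. All 8 fibroblast markers outside the gene set (Pdgfra, Clec3b, Islr, Mmp2, Fstl1, Serping1, Cygb and Ccdc80) were detected in the fibroblasts of each library, at a summed 7881 CPM (counts scaled to a total of 1e+06 per group of cells) in UV plus VD, 7605 in UV and 7979 in control. The rRNA gene CT010467.1 took 12.9% of fibroblast counts in UV plus VD, 14.1% in UV and 18.9% in control. All 9 keratinocyte markers had counts in the fibroblasts of each library and took 0.695%, 0.335% and 0.711% of counts in the same order of libraries. The 6 macrophage markers summed to 27.0 CPM in UV plus VD, 276 in UV and 161 in control, with C1qb and Adgre1 at 0 in UV plus VD and C1qa and C1qb at 0 in control; their part in the ratios was not tested. The 5 endothelial markers summed to 3.60, 18.7 and 2.83 CPM, and Pecam1, Cdh5, Emcn and Cldn5 were at 0 in the UV plus VD and the control fibroblasts. UV plus VD and UV shared 37 cell barcodes, UV plus VD and control 66, and UV and control 54, and no barcode was a fibroblast in 2 libraries. Few cells lay at the edge of the rule: 12 fibroblasts in UV plus VD, 7 in UV and 10 in control had 10 to 12 collagen counts, and 7, 3 and 11 cells with 7 to 9 collagen counts were outside it. A further 3, 16 and 2 cells met the collagen and Dcn limits and were left out for a Ptprc count.

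Fibroblasts were 2.77% [2.38, 3.21] of UV plus VD cells, 8.13% [7.41, 8.88] of UV cells and 2.03% [1.75, 2.34] of control cells. Square brackets give 95% intervals throughout. Those of shares, levels and folds cover counting error only, and with 1 library a group there is no replicate error and no test: each comparison describes these libraries. The Pi16-positive class held 151 of 172 fibroblasts in UV plus VD (87.8% [81.9, 92.3]), 273 of 443 in UV (61.6% [56.9, 66.2]) and 143 of 184 in control (77.7% [71.0, 83.5]). With each cell thinned to 3000 counts, the shares were 83.1%, 55.5% and 73.7%. Among cells outside the rule with at least 1% of counts from keratinocyte markers, 1.52%, 2.78% and 0.759% had a Pi16 count, at medians of 9766.5, 10060 and 7013 counts. The Pi16-negative class was small, with 21 cells in UV plus VD and 41 in control against 170 in UV, so 1 cell can set a level there. Exactly 1 Pi16 count was found in 3 cells of UV plus VD, 23 of UV and 6 of control.

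Most of the matrix counts of the libraries lay in these cells. The median gene of the 42 had 87.6% of its library's counts in fibroblasts in UV plus VD, 88.8% in UV and 85.0% in control. Under 50% were 6 of the 46 genes in UV plus VD, 4 in UV and 7 in control. P4hb, protein disulfide isomerase and the beta subunit of prolyl 4-hydroxylase, was among them, with 1.92%, 13.6% and 2.02% of its counts in fibroblasts. Ltbp4, a latent TGF-beta binding protein of elastic fibres, had 22.9%, 20.7% and 6.21%. Fbln1 had 46.7%, 49.8% and 56.1%, and Col16a1 32.3%, 73.0% and 23.2%. Tnc had 0%, 77.6% and 9.52%, Col12a1 31.5%, 60.6% and 6.33%, and Fbln5 79.8%, 39.4% and 73.3%. The 46 genes together took 1188 CPM of all cells in UV plus VD, 6893 in UV and 1308 in control, levels that include the larger fibroblast share in UV.

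In Pi16-positive cells, 26 of 42 genes were at least 1.5-fold higher in UV than in control and 0 were lower. The same limits were passed by 12.6% (higher) and 5.35% (lower) of all 7873 genes with at least 20 counts over the 3 libraries. These limits and the medians use log2 ratios of CPM plus 10, which shrink the ratios of low genes. The median log2 ratio was 0.67 [0.58, 0.82] over the 42 genes, with brackets giving the spread over genes, and 0.10 over all genes. Against UV, 0 of 42 were higher and 24 lower in UV plus VD, where 6.72% and 10% of all genes passed, with medians of -0.61 [-0.70, -0.42] and -0.04. UV plus VD against control had 8 higher and 0 lower, where 9.31% and 4.64% of all genes passed, with medians of 0.07 [-0.03, 0.29] and 0.06. The cells of this class held 911918 counts in UV plus VD, 1897088 in UV and 793515 in control. A gene could thus reach 20 counts through UV alone, as Tnc did, which favours higher calls in UV. With a filter on a mean of 10 CPM over libraries instead, 11.7% and 6.14% of all genes passed in UV against control. With cells of at least 1% keratinocyte counts left out, the UV against control median in this class was 0.54. The UV plus VD against UV count of lower genes was then 14, where 13.4% of all genes passed. With members, mitochondrial genes and the rRNA gene left out of the denominator, the UV plus VD against control median was -0.026. The median over all genes was then -0.025.

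In Pi16-negative cells 41 genes had at least 20 counts, Fmod being the exception. In UV against control 25 were higher and 2 lower, where 33.1% and 12.1% of all 6562 genes passed, with medians of 0.91 [0.43, 1.30] over the members and 0.26 over all genes. In UV plus VD against UV 4 were higher and 24 lower, where 17.4% and 32.8% passed, with medians of -0.73 [-1.12, -0.22] and -0.21. UV plus VD against control had 14 higher and 8 lower, where 23.2% and 16.5% passed, with medians of 0.02 [-0.16, 0.59] and 0.08. This class held 199174 counts in UV plus VD, 1372747 in UV and 265774 in control, so the count filter leaned more to UV. With the filter on a mean of 10 CPM, 29% and 14.5% of all genes passed in UV against control. Over all fibroblasts the counts were 24 higher and 0 lower in UV against control (16.1% and 5.49% of 9225 genes), 1 higher and 24 lower in UV plus VD against UV (7.33% and 14.4%), and 6 higher and 3 lower in UV plus VD against control (7.3% and 4.08%). The medians were 0.70 [0.49, 0.97], -0.78 and 0.06, where all genes had 0.15, -0.09 and 0.06. When cells were chosen by the 8 markers outside the gene set instead of by collagen counts, the medians were 0.81, -0.72 and 0.04.

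**Figure D1:**
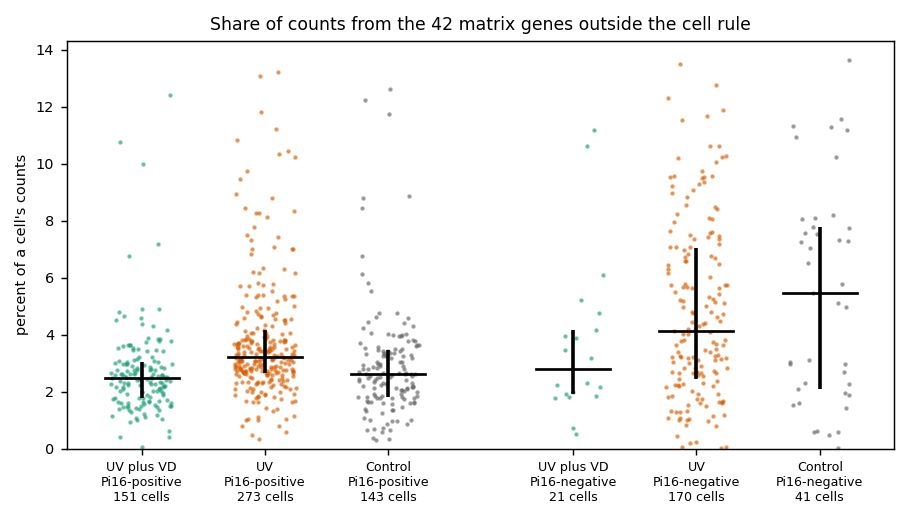
Percent of each fibroblast's counts that came from the 42 matrix genes outside the cell rule (y axis, percent), by Pi16 class and library. Points are cells, horizontal lines medians and vertical bars the quartiles; the Pi16-positive medians are 2.47% in UV plus VD, 3.21% in UV and 2.61% in control, and the Pi16-negative cells spread more widely.

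Per cell, the 42 genes took a median of 2.47% of a Pi16-positive cell's counts in UV plus VD, 3.21% in UV and 2.61% in control, as the plot of matrix share per cell shows. The quartiles were 1.77 to 3.04%, 2.64 to 4.14% and 1.81 to 3.47%, so single cells of the 3 libraries overlap. In Pi16-negative cells the medians were 2.78%, 4.14% and 5.45%, with the control highest. The cell medians and the gene medians therefore put UV and control in different orders in this class. Sparc, the most abundant of the 42 genes there, had 24022 CPM in UV and 36155 in control, while Lum had 2862 and 2540. Without the cells that carry dermal papilla and sheath markers, described further on, the Sparc log2 ratio of UV to control was 0.07. The part of single genes in the order of the cell medians was not tested.

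The Pi16 classes differed in which matrix genes they held. In all 3 libraries 9 of the 42 genes were at least 1.5-fold higher in Pi16-positive than in Pi16-negative cells: Col14a1, Ogn, Fbn1, Efemp1, Mfap5, Fn1, Tnxb, Dpt and Prg4. At these limits 3.35% of all 9225 genes stood higher in all 3 libraries. Mfap5, a microfibril glycoprotein, had 1315 CPM in Pi16-positive and 201 in Pi16-negative cells of UV plus VD, 1104 and 94.0 in UV, and 1340 and 45.2 in control. Fn1, fibronectin, had 2103 and 552 CPM in UV plus VD, 2109 and 562 in UV, and 2038 and 293 in control. Mfap5 was 6.55-fold [4.78, 9.21] higher in Pi16-positive cells of UV plus VD, 11.7-fold [9.83, 14.1] of UV and 29.7-fold [16.9, 57.6] of control. Lower in Pi16-positive cells of all 3 libraries were 7 of the 42 genes, Col15a1, Lum, Bgn, Mfap2, Sparc, P4hb and Serpinh1, where 1.91% of all genes were; Col1a1 and Col1a2 of the cell rule stood the same way. Bgn, biglycan, had 144 CPM in Pi16-positive and 663 in Pi16-negative cells of UV plus VD, 535 and 2274 in UV, and 116 and 963 in control. Lum, lumican, had 525 and 2109, 1658 and 2862, and 434 and 2540 CPM in the same libraries. Without the UV cells that carry dermal papilla and sheath markers, described further on, 13 genes were higher and 6 lower in all 3 libraries. Dpt and P4hb were no longer among them. The share over all genes was not computed without these cells, so the change in the counts has no background beside it.

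**Figure D2:**
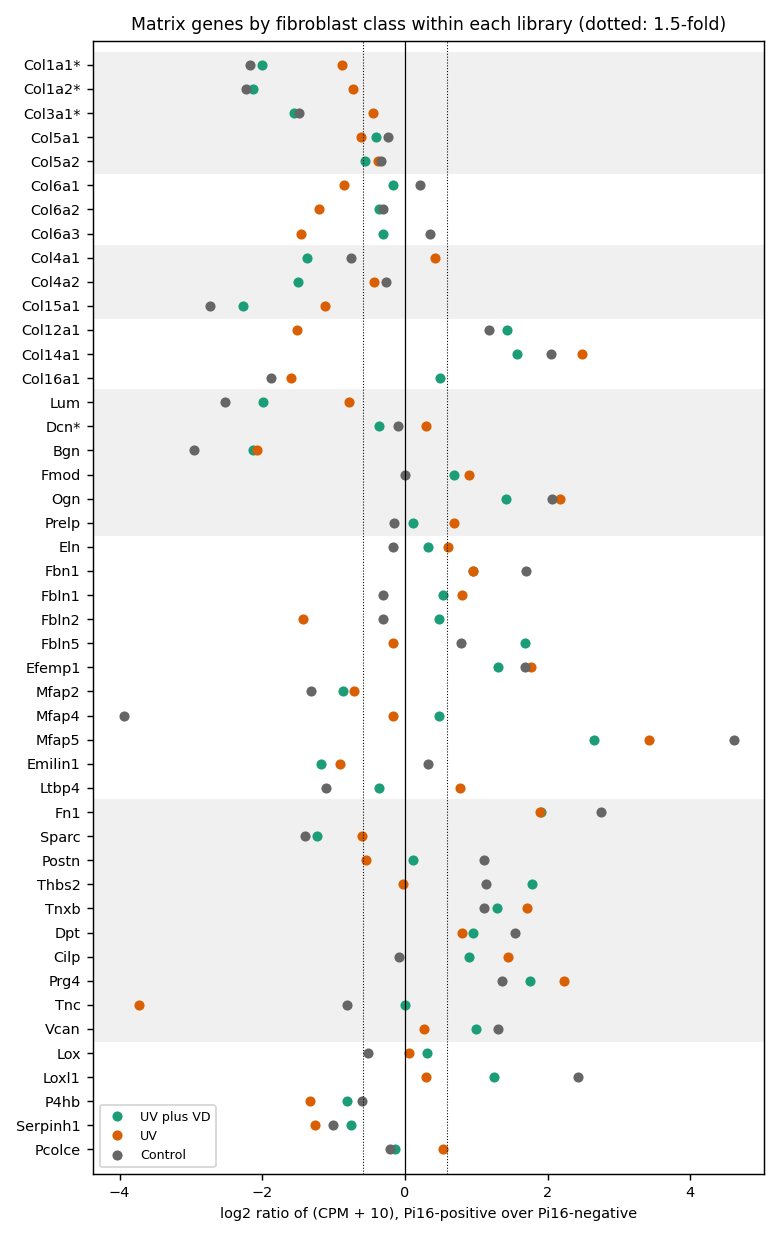
Log2 ratio of CPM plus 10 (x axis), Pi16-positive over Pi16-negative fibroblasts, for each gene (y axis; an asterisk marks the 4 genes of the cell rule) in each library (colours); dotted lines mark 1.5-fold. Mfap5, Fn1, Ogn and Col14a1 lie right of the upper line in all 3 libraries and Lum, Bgn and Col15a1 left of the lower line, while Tnc at -3.72 in UV stands apart from its other libraries.

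**Figure D3:**
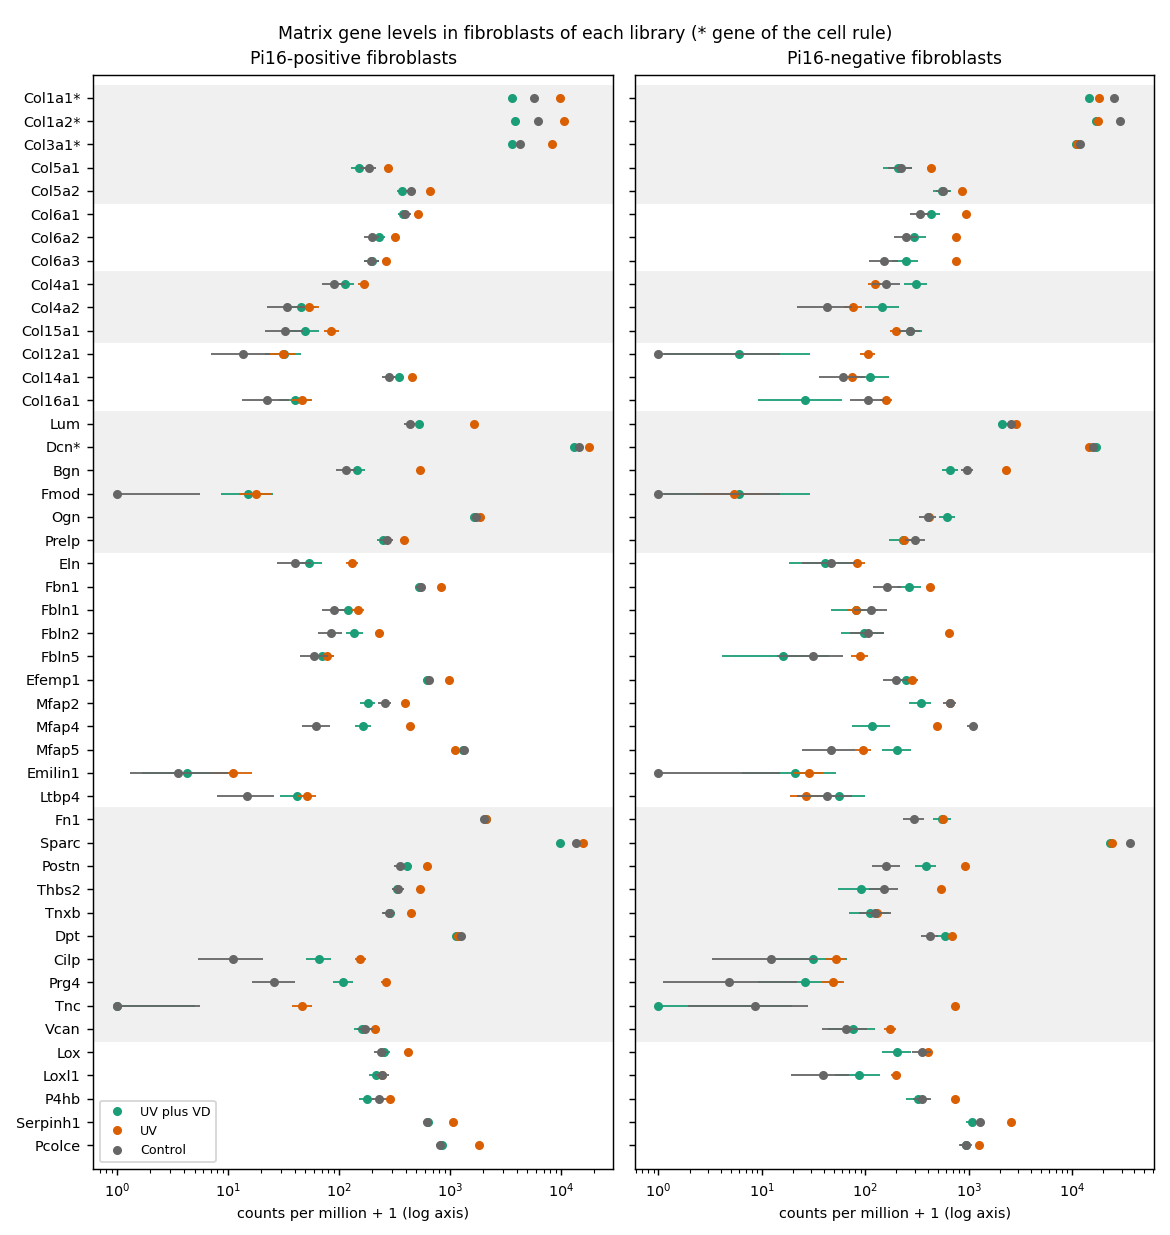
Level of each gene (CPM plus 1, log axis) in Pi16-positive fibroblasts (left) and Pi16-negative fibroblasts (right) of each library (colours), with 95% Poisson intervals; rows are grouped by role. In the left panel UV is the rightmost point for most genes, as for Lum at 1658 CPM in UV against 525 in UV plus VD and 434 in control.

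The fibrillar collagens form the load-bearing fibrils. Col5a1 and Col5a2, the type V chains that start fibrils and limit their width, are outside the cell rule. In Pi16-positive cells Col5a1 had 152 CPM in UV plus VD, 277 in UV and 184 in control, and Col5a2 had 371, 668 and 444 CPM. Both were highest in UV: 1.51-fold above control [1.25, 1.82] for Col5a1 and 1.51-fold [1.34, 1.70] for Col5a2, just under the limit on the log2 scale with 10 CPM added. UV plus VD was 1.82-fold [1.51, 2.21] and 1.80-fold [1.60, 2.04] lower than UV. In Pi16-negative cells Col5a1 had 206 CPM in UV plus VD, 431 in UV and 218 in control, and Col5a2 had 552, 868 and 564. Here too UV was highest and the other libraries were close to each other. The genes that chose the cells are described without a test: in Pi16-positive cells Col1a1 had 3656 CPM in UV plus VD, 9825 in UV and 5709 in control, Col1a2 had 3889, 10768 and 6179, and Col3a1 had 3666, 8257 and 4273. In Pi16-negative cells Col1a1 had 14711, 18114 and 25661 CPM, Col1a2 17055, 17793 and 28934, and Col3a1 10780, 11258 and 11969, with control highest for each. Without the UV and control cells that carry dermal papilla and sheath markers, described further on, Col1a1 and Col1a2 were nearly level between UV and control. The log2 ratios of UV to control were 0.10 for Col1a1, 0.01 for Col1a2 and 0.43 for Col3a1, all inside 1.5-fold. Col1a1 then had 26572 CPM in UV and 24809 in control, Col1a2 27805 and 27602, and Col3a1 15669 and 11668.

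Type VI collagen forms the beaded filaments that link cells to the surrounding matrix, from the chains Col6a1, Col6a2 and Col6a3. In Pi16-negative cells Col6a1 had 427 CPM in UV plus VD, 932 in UV and 339 in control. Col6a2 had 296, 754 and 245 CPM, and Col6a3 had 246, 751 and 151. All 3 chains were highest in UV, 2.75-fold [2.22, 3.45], 3.08-fold [2.40, 4.02] and 4.99-fold [3.64, 7.03] above control. They were 2.18-fold [1.75, 2.75], 2.55-fold [1.96, 3.37] and 3.05-fold [2.29, 4.15] lower in UV plus VD than in UV. Pi16-positive cells showed smaller differences, with Col6a1 at 379, 511 and 396 CPM, Col6a2 at 228, 322 and 197, and Col6a3 at 196, 267 and 195. Col6a2 alone passed the limit in that class, in UV against control. The type VI chains are among the genes concentrated in marker-carrying UV cells described further on.

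Col4a1 and Col4a2 encode the chains of the type IV network, and Col15a1 encodes a collagen that joins basement membranes to fibrils. In Pi16-negative cells Col4a1 had 306 CPM in UV plus VD, 122 in UV and 158 in control, and Col4a2 had 146, 75.8 and 41.4. UV plus VD was the highest library, 2.50-fold [1.84, 3.37] above UV for Col4a1 and 1.92-fold [1.23, 2.92] for Col4a2. Of the Col4a1 counts there, 1 of 15 cells with a count held 27.9%; without the cell with most counts in each library the log2 ratio to UV was 0.95, against 1.26 with it. In Pi16-positive cells Col4a1 had 112, 167 and 89.5 CPM and was highest in UV, 1.87-fold above control [1.44, 2.45]. Col15a1 had 48.2 CPM in UV plus VD, 84.3 in UV and 31.5 in control in Pi16-positive cells, 2.68-fold higher in UV than in control [1.75, 4.26], and 271, 195 and 267 CPM in Pi16-negative cells. Without the marker-carrying cells, Pi16-negative Col15a1 had 315 CPM in UV and 259 in control, a log2 ratio of 0.28, and the Pi16-negative Col4a2 log2 ratio of UV plus VD to UV was 0.39, inside the limit, against 0.86 with them.

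The fibril-associated collagens sit on fibril surfaces. Col14a1 had 348 CPM in UV plus VD, 455 in UV and 281 in control in Pi16-positive cells, 1.62-fold higher in UV than in control [1.40, 1.88]. Col12a1 had 30.7, 30.0 and 12.6 CPM there and Col16a1 39.5, 45.3 and 21.4, so for both genes UV plus VD and UV lay close together above control. Col12a1 was 2.44-fold [1.15, 5.62] and Col16a1 1.84-fold [1.01, 3.50] higher in UV plus VD than in control, intervals that reach nearly to 1. In Pi16-negative cells Col12a1 had 1 count from 1 cell in UV plus VD, 104 CPM in UV and 0 counts in control, which makes UV at least 9.23-fold higher than control at a limit of 3 counts in control. Col16a1 had 25.1, 158 and 105 CPM there, 6.30-fold lower in UV plus VD than in UV [2.66, 19.6].

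Of the 5 small leucine-rich proteoglycans outside the cell rule, 3 were at least 1.5-fold higher in UV than in control and 3 lower in UV plus VD than in UV in Pi16-positive cells, where 12.6% and 10% of all genes passed. Lum, which regulates fibril diameter, had 525 CPM in UV plus VD, 1658 in UV and 434 in control. UV was 3.82-fold above control [3.42, 4.29], and UV plus VD 3.16-fold below UV [2.87, 3.48]. Bgn, which binds collagen and TGF-beta, had 144 CPM in UV plus VD, 535 in UV and 116 in control, 4.61-fold higher in UV than in control [3.73, 5.78] and 3.72-fold lower in UV plus VD than in UV [3.10, 4.50]. UV plus VD was 1.21-fold [1.05, 1.40] and 1.24-fold [0.942, 1.64] above control, so UV plus VD lay between UV and control and near to control. In Pi16-negative cells Bgn had 663, 2274 and 963 CPM, again highest in UV, while Lum at 2109, 2862 and 2540 CPM stayed within 1.5-fold. Without the marker-carrying cells Lum passed the limit in both comparisons with UV, at log2 ratios of 0.87 in UV against control and -1.08 in UV plus VD against UV. Ogn, osteoglycin, was nearly level in Pi16-positive cells at 1659, 1878 and 1709 CPM. Prelp, which anchors basement membranes to collagen, had 251, 385 and 271 CPM there, 1.53-fold lower in UV plus VD than in UV [1.32, 1.79]. Fmod, fibromodulin, had 14 counts in UV plus VD, 38 in UV and 0 in control fibroblasts, and its Pi16-positive counts came from 2, 4 and 0 cells. Dcn, decorin, a gene of the cell rule, had 13150, 17916 and 14699 CPM in Pi16-positive cells.

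The elastic fibre genes counted 8 of 11 higher and 0 lower in UV than in control in Pi16-positive cells, 0 higher and 7 lower in UV plus VD than in UV, and 3 higher and 0 lower in UV plus VD than in control. The shares over all genes were 12.6% and 5.35%, 6.72% and 10%, and 9.31% and 4.64%. Eln, elastin itself, had 52.6 CPM in UV plus VD, 130 in UV and 39.1 in control. It was 3.33-fold higher in UV than in control [2.29, 5.01] and 2.47-fold lower in UV plus VD than in UV [1.81, 3.44]. Fbn1, the fibrillin of the microfibril core, had 527, 824 and 547 CPM, 1.51-fold higher in UV than in control [1.35, 1.68]; its log2 ratio with 10 CPM added, 0.58, fell just short of the limit. Efemp1, fibulin-3, had 623, 985 and 650 CPM, and Mfap2, a microfibril glycoprotein, 182, 397 and 257. For Fbn1, Efemp1 and Mfap2 UV was highest and UV plus VD was below control, while for Eln UV plus VD lay between UV and control. Fbln2 had 137, 230 and 83.2 CPM, 2.77-fold above control in UV [2.13, 3.64] and 1.65-fold above control in UV plus VD [1.21, 2.26]. Fbln1 had 121, 148 and 89.5 CPM, Fbln5, which guides elastin onto microfibrils, 70.2, 76.4 and 59.2, and Ltbp4 40.6, 50.6 and 13.9. Emilin1, an elastin interface protein, was near the detection limit, with 7, 57 and 2 counts in all fibroblasts. Mfap5 went the other way from most members at 1315, 1104 and 1340 CPM, within 1.5-fold in each comparison.

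Mfap4, a microfibril-associated protein that binds elastin and collagen, was found in few cells. In Pi16-positive cells it had 166 CPM in UV plus VD, 439 in UV and 61.8 in control, from 10, 56 and 5 cells. UV was 7.10-fold above control [5.32, 9.68], and 1 cell held 55.1% of the control counts. In Pi16-negative cells it had 115 CPM in UV plus VD, 495 in UV and 1091 in control, from 3, 87 and 17 cells, 2.21-fold lower in UV than in control [1.92, 2.53]. UV thus stood above control in Pi16-positive cells and below it in Pi16-negative cells. Without the 73 UV and 3 control cells that carry dermal papilla and sheath markers, the log2 ratio of UV to control was 3.45 in Pi16-positive cells, against 2.64 with them. The larger ratio came from control, which fell from 61.8 to 27.9 CPM with 1 Pi16-positive cell left out, while UV fell from 439 to 405. In Pi16-negative cells the ratio was -0.20, against -1.13 with the marker cells. Fbln2 in Pi16-negative cells had 95.4 CPM in UV plus VD, 640 in UV and 105 in control, 6.70-fold lower in UV plus VD than in UV [4.27, 11.2]. Fbln5 there had 15.1, 87.4 and 30.1 CPM, and Fbn1 266, 418 and 162.

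**Figure D4:**
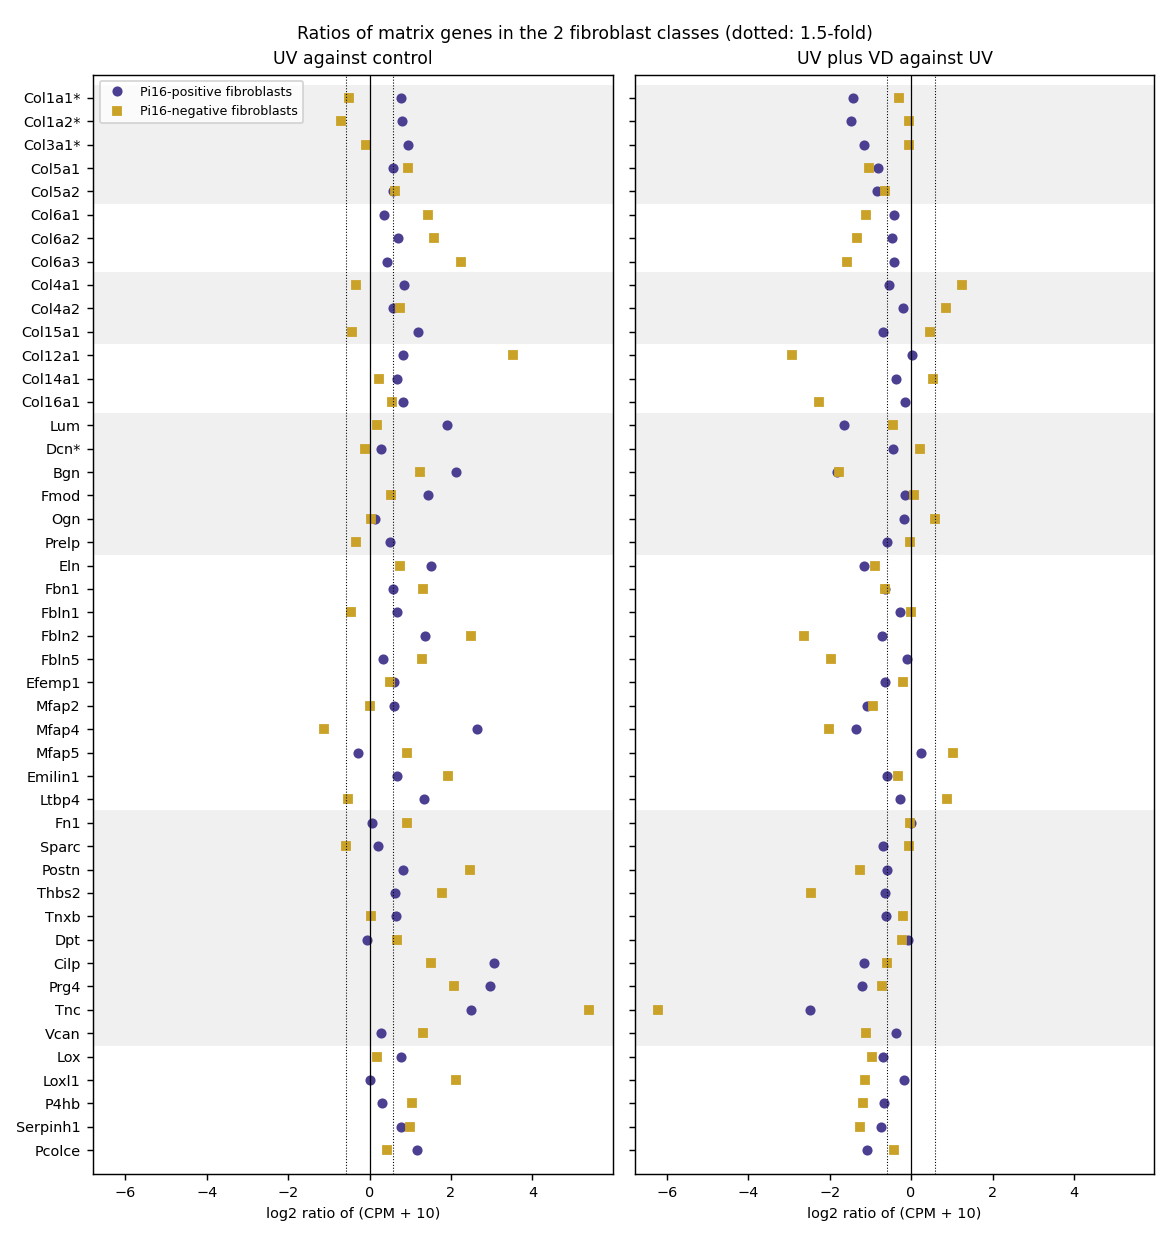
Log2 ratio of CPM plus 10 (x axis) for each gene (y axis; an asterisk marks the 4 genes of the cell rule) in UV against control (left) and UV plus VD against UV (right), for both Pi16 classes; dotted lines mark 1.5-fold. Pi16-positive points (circles) lie mostly right of 0 in the left panel and left of 0 in the right panel, and Tnc has 0 counts in UV plus VD, so its ratios there depend on the added 10 CPM.

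Among glycoproteins and matricellular genes, Cilp and Prg4 stood far above control in Pi16-positive cells. Cilp, cartilage intermediate layer protein, had 64.7 CPM in UV plus VD, 156 in UV and 10.1 in control, 15.4-fold higher in UV than in control [7.73, 36.1] and 6.42-fold higher in UV plus VD than in control [3.05, 15.6]. Prg4, lubricin, had 109, 264 and 25.2 CPM, 10.5-fold [6.70, 17.3] and 4.31-fold [2.64, 7.36] higher. Both were highest in UV and lowest in control, and both came from few cells: Cilp from 10, 34 and 3 cells and Prg4 from 17, 106 and 6. The cell with most counts held 35.4% of the UV plus VD Prg4 counts. Without the cell with most counts in each library the log2 ratios to control were 3.29 and 3.30 in UV and 1.90 and 1.67 in UV plus VD.

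Postn, periostin, which promotes collagen cross-linking, had 413 CPM in UV plus VD, 626 in UV and 353 in control in Pi16-positive cells. It had 382, 917 and 158 CPM in Pi16-negative cells, 5.80-fold higher in UV than in control [4.27, 8.09]. Thbs2, a matricellular regulator of fibril assembly, had 337, 535 and 343 CPM in Pi16-positive cells and 90.4, 543 and 151 in Pi16-negative cells. The promoter windows of these genes are among those printed above. In both classes UV was the highest library for both genes. Tnxb, tenascin-X, which spaces collagen fibrils, had 285, 445 and 280 CPM in Pi16-positive cells, 1.59-fold higher in UV than in control [1.37, 1.85], and 110, 128 and 124 in Pi16-negative cells. Vcan, the large proteoglycan versican, had 160, 210 and 173 CPM in Pi16-positive cells and 75.3, 173 and 64.0 in Pi16-negative cells. Some abundant glycoproteins were nearly level in Pi16-positive cells: Fn1 had 2103, 2109 and 2038 CPM, and Dpt, dermatopontin, 1137, 1197 and 1251. Sparc, a collagen-binding protein, had 9841, 15823 and 13677 CPM, 1.61-fold lower in UV plus VD than in UV [1.57, 1.65]. In Pi16-negative cells Sparc had 23241, 24022 and 36155 CPM, 1.51-fold lower in UV than in control [1.47, 1.54]; without the marker-carrying cells the log2 ratio was 0.07, against -0.59 with them.

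Tnc, tenascin-C, a provisional matrix protein of wounds and hair follicles, was found almost wholly in UV. All fibroblasts together had 0 Tnc counts in UV plus VD, 1087 in UV and 2 in control. In Pi16-negative cells this was 728 CPM in UV and 7.53 in control, 96.8-fold higher [26.7, 800], and at least 48.4-fold lower in UV plus VD than in UV at a limit of 3 counts in UV plus VD. In Pi16-positive cells 87 counts in UV came from 6 cells, and 1 cell held 73.6% of them. Without the cells that carry dermal papilla and sheath markers, the Pi16-positive log2 ratio of UV to control was 0.40, inside the limit. The Pi16-negative ratio was then 0.70, resting on 13 counts (19.1 CPM) in UV and 2 counts (7.83 CPM) in control.

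The assembly enzymes and chaperones prepare and cross-link collagen. Serpinh1, the procollagen chaperone HSP47, had 631 CPM in UV plus VD, 1067 in UV and 626 in control in Pi16-positive cells, 1.70-fold higher in UV than in control [1.54, 1.88] and 1.69-fold lower in UV plus VD than in UV [1.54, 1.86]. In Pi16-negative cells it had 1069, 2566 and 1276 CPM, with UV again highest. Pcolce, which speeds the trimming of procollagen, had 850, 1818 and 808 CPM in Pi16-positive cells, 2.25-fold higher in UV than in control [2.07, 2.45] and 2.14-fold lower in UV plus VD than in UV [1.98, 2.31]. UV plus VD stood 1.01-fold [0.891, 1.14] above control for Serpinh1 and 1.05-fold [0.946, 1.17] for Pcolce. Lox, the lysyl oxidase that starts collagen and elastin cross-links, had 252, 416 and 241 CPM in Pi16-positive cells, 1.73-fold higher in UV than in control [1.48, 2.04]. Loxl1, the family member tied to elastic fibres, was level there at 216, 246 and 246 CPM, and had 85.4, 197 and 37.6 CPM in Pi16-negative cells, 5.25-fold higher in UV than in control [2.81, 11.1]. P4hb had 179, 288 and 231 CPM in Pi16-positive cells and 321, 737 and 354 in Pi16-negative cells.

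Some UV fibroblasts carried markers from a list for the dermal papilla and sheath of the hair follicle, mainly Crabp1. Which cell type these fibroblasts are was not tested. The dermal papilla and sheath list (Corin, Sox2, Crabp1, Alx4 and Acta2) summed to 0.900 CPM in UV plus VD, 1250 in UV and 8.50 in control fibroblasts. It rested on Crabp1 with 3828 counts in UV, followed by Acta2 with 257; Corin and Alx4 had 1 count each and Sox2 had none. At least 2 counts over the list were found in 0 of 172 UV plus VD fibroblasts, 73 of 443 UV fibroblasts and 3 of 184 control fibroblasts. Of the 73 UV cells, 68 were Pi16-negative. These 73 cells held 22.4% of the counts of UV fibroblasts, but 98.3% of the Tnc counts, 73.5% of Col12a1, 64.9% of Emilin1, 56.6% of Fbln2, 55.8% of Col6a3 and 54.4% of Bgn. They held 1.04% of the Ogn, 1.04% of the Col14a1 and 1.06% of the Prg4 counts. Tnc stood at 1458 CPM in these cells and 7.49 CPM in the other UV fibroblasts. Bgn stood at 3071 CPM in these cells and 743 in the others, and Ogn at 58.7 in these cells and 1609 in the others.

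**Figure D5:**
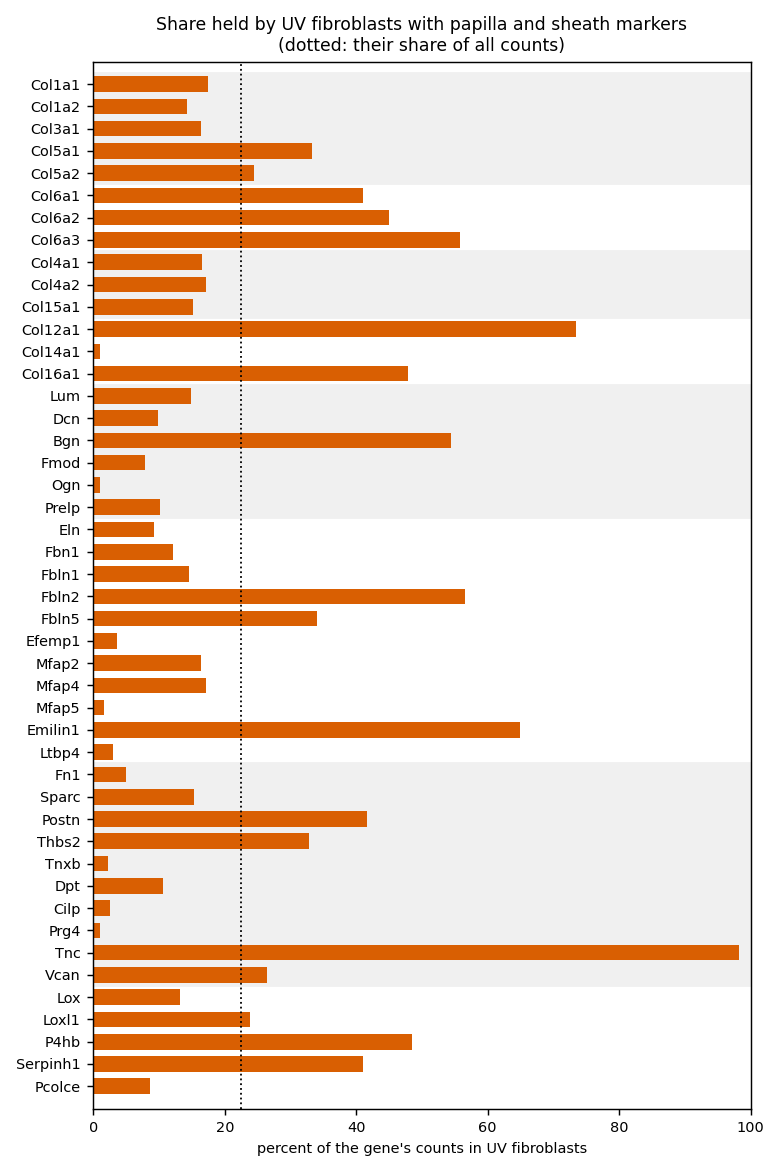
Percent of each gene's counts in UV fibroblasts (x axis) held by the 73 cells with at least 2 counts of dermal papilla and sheath markers, by gene (y axis); the dotted line is the 22.4% of all counts held by these cells. Tnc at 98.3% and Col12a1 at 73.5% extend farthest, and Ogn, Col14a1 and Prg4 stop near 1%.

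With these cells left out of all libraries, a choice made after seeing the data, the Tnc log2 ratio of UV to control was 0.55 over all fibroblasts, against 4.85 with them, and Col12a1 had 0.66, against 1.87. In Pi16-negative cells the UV to control log2 ratios were 0.92, 0.91 and 0.91 for Col6a1, Col6a2 and Col6a3, against 1.43, 1.59 and 2.25 with the marker cells. The Postn ratio was 1.23, against 2.46, the Fbln2 ratio 1.18, against 2.49, and the P4hb ratio 0.18, against 1.04. The UV plus VD to UV ratios there were -0.22 for Col6a3, against -1.57, and -0.06 for Postn, against -1.24. Over all fibroblasts the medians were 0.67 in UV against control and -0.61 in UV plus VD against UV, with 26 genes higher in the first and 22 lower in the second, where 9.99% and 8.49% of all genes passed and the medians over all genes were 0.08 and -0.02. In Pi16-positive cells they were 0.66 and -0.58, with 27 higher and 20 lower of 41 genes, where 12.7% and 9.53% of all genes passed and their medians were 0.10 and -0.03. In Pi16-negative cells they were 0.89 and -0.69, with 29 higher and 24 lower of 38 genes, where 21.3% and 19.8% of all genes passed and their medians were 0.07 and 0.05. Calls of single genes in Pi16-negative cells differed in both directions. In UV against control Efemp1 at 1.36, Pcolce at 1.09, Col14a1 at 0.98, Ogn at 0.93, Tnxb at 0.85, Lox at 0.74 and Mfap2 at 0.66 passed the limit without the marker cells and not with them. The P4hb call in that comparison ended, at 0.18. Calls in UV plus VD against UV that ended, besides those of Col6a3, Postn and Col4a2, were those of Col6a1 at -0.42, Vcan at -0.49, P4hb at -0.33, Col12a1 at -0.08, Mfap5 at 0.40 and Ltbp4 at 0.20. Lower calls that were new there, besides that of Lum, were Pcolce at -1.07, Tnxb at -1.01 and Efemp1 at -0.90. Sparc at -0.63, Dpt at -0.60 and Prelp at -0.59 were new as well. Lum, Bgn, Pcolce and Eln in Pi16-positive cells had UV to control log2 ratios of 1.98, 2.17, 1.16 and 1.55 without the marker cells, against 1.91, 2.11, 1.16 and 1.51 with them.

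Over all fibroblasts, of the 20 genes of collagen biosynthesis, 10 were higher and 0 lower in UV than in control, with a median log2 ratio of 0.59, and 0 were higher and 12 lower in UV plus VD than in UV, with a median of -0.64. The shares over all genes were 16.1% and 5.49%, and 7.33% and 14.4%, with medians of 0.15 and -0.09. In Pi16-positive cells 18 of the 20 had enough counts, and 5 were higher in UV than in control (median 0.25, where 12.6% of all genes passed) and 6 lower in UV plus VD than in UV (median -0.33, where 10% passed). Fkbp10, a collagen-folding isomerase of the endoplasmic reticulum, had 28.8 CPM in UV plus VD, 128 in UV and 52.9 in control. Kdelr3, which returns resident proteins to the endoplasmic reticulum, had 19.8, 105 and 45.3 CPM. P3h1, a prolyl 3-hydroxylase, had 21.6, 48.9 and 19.8 CPM, and P4ha2, an alpha subunit of prolyl 4-hydroxylase, 75.6, 186 and 99.1. UV was highest for all of these, which were picked for their large ratios in the comparisons with UV. In UV plus VD against control 0 of the 20 were higher and 4 lower, where 7.3% and 4.08% of all genes passed, including Fkbp10 at 1.84-fold lower [1.17, 2.93] and Adamts2, a procollagen peptidase, at 247 CPM in UV plus VD and 386 in control, 1.57-fold lower [1.34, 1.83].

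Of 30 other matrix genes, 26 had enough counts; 11 were higher and 0 lower in UV than in control (median 0.29), and 2 higher and 10 lower in UV plus VD than in UV (median -0.40), against shares over all genes of 16.1% and 5.49% (median 0.15), and 7.33% and 14.4% (median -0.09). Col8a1 had 8.10 CPM in UV plus VD, 86.5 in UV and 0.944 in control, and 89.0% of its UV counts lay in the marker-carrying cells. Igfbp7, a secreted binding protein, had 146, 348 and 78.4 CPM, and Matn2, a matrilin, 14.4, 38.8 and 4.72. Col18a1, which carries endostatin, had 19.8, 64.8 and 21.7 CPM, and Ltbp2 had 0 counts in UV plus VD, 16.5 CPM in UV and 4.72 in control. In UV plus VD against control 5 were higher and 1 lower, where 7.3% and 4.08% of all genes passed, among them Thbs1, thrombospondin-1, at 77.4 and 38.7 CPM, and Ltbp1, a latent TGF-beta binding protein, at 47.7 and 96.3 CPM.

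Of 17 measured genes of the TGF-beta list, 5 were higher and 0 lower in UV than in control (median 0.22), and 0 higher and 7 lower in UV plus VD than in UV (median -0.36). The shares over all genes were 16.1% and 5.49%, and 7.33% and 14.4%, with medians of 0.15 and -0.09, so the UV against control median of the list lay near that of all genes. In UV plus VD against control 1 was higher and 2 lower, where 7.3% and 4.08% of all genes passed. Cthrc1, a gene of activated fibroblasts, had 45.0 CPM in UV plus VD, 365 in UV and 115 in control. Acta2 had 78.6 CPM in UV and 0 counts in the other libraries. The marker-carrying cells held 72.1% of the UV counts of Cthrc1 and 98.8% of those of Acta2, itself a marker of the list. In UV plus VD against control Cthrc1 was 2.56-fold lower [1.83, 3.63], Tgfbi, a TGF-beta induced matrix protein, 1.54-fold lower [1.32, 1.79], and Skil, a SMAD co-repressor, 1.76-fold higher [1.32, 2.35].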

How the data were processed

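Single-cell RNA was measured in 3 whole-skin libraries, and the 46 genes and the other gene lists were chosen with earlier results of these data known. The authors deposited tables of raw counts (genes by cells). FastQC, fastp, STAR and featureCounts and the build GRCh38 are named without versions in the submitters' processing notes; GRCh38 is a human build, while all 46 member symbols and 97.6% of all symbols are in the mouse annotation GENCODE M21. Whether the counts are molecules or reads is not stated. Cells with under 200 genes or over 20% mitochondrial counts were left out, and 0 per-sample columns were left unused. Doublets were not removed; leaving out cells with at least 1% keratinocyte-marker counts is an alternative. The counts of a class were added up within its library and scaled to CPM. Log2 ratios used CPM plus 10 over genes with at least 20 counts, and genes past 1.5-fold were counted. Fold intervals are exact conditional ones, level intervals exact Poisson and share intervals exact Clopper-Pearson, all at 95% and for counting error only. The interval of a median comes from order statistics over genes. The named genes are all 46 members and, from each other list, up to 3 with the largest absolute log2 ratio in fibroblasts among those reaching 50 counts in either library. The code was tested on simulated data. Python 3.11.15 was used with numpy 2.4.6, pandas 2.3.3, scipy 1.17.1 and matplotlib 3.10.9.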

Additional observations from a re-analysis of the deposited data

Results flagged for a closer look

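Opposite directions in the Pi16 classes, each past 1.5-fold, were found for 3 genes. The difference between the classes was not tested in any of them. The share of all genes with such opposite directions was not computed, so the count of 3 has no background beside it. Mfap4, the microfibril-associated protein, had a UV against control log2 ratio of 2.64 in Pi16-positive cells and -1.13 in Pi16-negative cells. In UV plus VD against control its log2 ratios were 1.29 in Pi16-positive and -3.13 in Pi16-negative cells. Col16a1 had a UV plus VD against control log2 ratio of 0.65 in Pi16-positive and -1.72 in Pi16-negative cells, where it was counted in 4 UV plus VD and 14 control cells. Col1a2, which helped to choose the cells, had a UV against control log2 ratio of 0.80 in Pi16-positive and -0.70 in Pi16-negative cells. Without cells carrying papilla and sheath markers, the Col1a2 ratios were 0.81 in Pi16-positive and 0.011 in Pi16-negative cells, and those of Mfap4 in UV against control 3.45 and -0.20, so neither pair was past 1.5-fold in both classes.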

How the results depend on the processing

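No paired analysis was possible because each group is 1 library and the labels carry no replicate numbers. With 1 library a group, none of the differences has a replicate check, and the 21 UV plus VD and 41 control Pi16-negative cells limit that class most. Of 441 alternatives for summary values, 395 were counted as the same as the reported value. A median counted as the same while it lay inside its interval over genes, which can be wide. In Pi16-negative cells the UV against control median fell from 0.91 to as low as 0.54. It still counted as the same, because its interval was 0.43 to 1.30. The median over 42 genes in all fibroblasts ranged from 0.52 to 0.82 in UV against control and from -0.91 to -0.60 in UV plus VD against UV. In Pi16-positive cells, genes lower in UV plus VD than in UV numbered 15 under a stricter cell rule, 14 without cells rich in keratinocyte markers and 15 with cells thinned to 3000 counts, where 10.5%, 13.4% and 13.3% of all genes passed, and the UV against control median was 0.54 without the keratinocyte-rich cells. With members, mitochondrial and rRNA genes out of the denominator, the UV plus VD against UV medians were -0.91 in all fibroblasts and -0.73 in Pi16-positive cells. Over all genes these medians were -0.17 and -0.11. The UV plus VD against control medians were -0.10 in all fibroblasts, -0.026 in Pi16-positive and -0.26 in Pi16-negative cells. Over all genes they were -0.056, -0.025 and -0.14. The fibroblast share was 2.16% in UV plus VD and 1.72% in control under the stricter rule, 2.37% and 1.73% without keratinocyte-rich cells, 2.21% in UV plus VD with the rule applied after thinning, and 6.79% in UV without cells carrying papilla and sheath markers. The Pi16-positive share of UV was 72.4% without those cells, 55.5% thinned and 56.4% from 2 counts. The matrix share of fibroblast counts was 6.50% in UV plus VD and 8.55% in control under the stricter rule, 6.85% and 9.70% without keratinocyte-rich cells, and 2.63% in UV plus VD, 4.08% in UV and 3.32% in control over the 42 genes. Under a looser rule, fibroblasts held 91.9% of the median gene's counts in UV plus VD.

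The alternatives for called member values include changes of the gene filter and of the genes counted, which cannot move a gene's own ratio. A Pi16 limit of 2 counts likewise leaves the Pi16-negative class unchanged. These are counted among the alternatives that stayed past 1.5-fold. Of 2954 alternatives, 2754 stayed past 1.5-fold, 191 fell inside it and, for a cause not tested, 9 changed sign. In Pi16-negative cells these were, for UV plus VD against control, Cilp at -0.49 under the stricter rule and -0.56 without keratinocyte-rich cells, Col14a1 at -0.31 without those cells and -0.031 thinned, and Loxl1 at -0.027 thinned, and, for UV plus VD against UV, Cilp at 0.095 thinned. Without cells carrying papilla and sheath markers, Col12a1 in all fibroblasts was at 0.22 in UV plus VD against UV, and in Pi16-negative cells Col1a2 was at 0.011 and Sparc at 0.066 in UV against control. Leaving out those cells, the CPM filter, thinning before the cell rule and leaving out the top cell were chosen after seeing the data.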
